A study of Mus musculus with 2 samples.

Results

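The proteasome is the protease that degrades proteins tagged with ubiquitin. Its genes were taken as all genes whose symbol consists of Psm, a letter from a to g and a number. This rule found 48 of the 55363 genes in the files. They were compared between whole uterus of Mettl14 f/f and Mettl14 d/d mice on gestational day 4, counted from the vaginal plug as day 1, after females aged 6 to 8 weeks had been mated with fertile males. Mettl14 encodes a subunit of the enzyme complex that writes N6-methyladenosine on RNA, and the labels call the control f/f, commonly a floxed genotype, and the other d/d, commonly a deleted one. Each genotype is represented by 1 library, so no value has a replicate error and no test between genotypes is possible. The driver of the deletion, and whether a library came from 1 animal or a pool, could not be read from the labels.

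The core particle is a barrel of stacked rings. Alpha subunits form the outer rings and gate the entry, and beta subunits form the inner rings, where 3 kinds of beta subunit carry the protease sites. In immune cells and under interferon, the immunosubunits Psmb8, Psmb9 and Psmb10 take the places of the catalytic Psmb5, Psmb6 and Psmb7, which favours peptides that MHC class I molecules can present. The regulatory particle caps the barrel, recognises and removes ubiquitin, and unfolds substrates with a ring of ATPases. Dedicated chaperones assemble both particles, and other activators can replace the regulatory particle.

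Levels are given as FPKM, the fragments of a gene scaled to its length in kilobases and to the mapped fragments of the library, and are thus per length. Depth was estimated from the steps of the low values at 17800000 fragments in the f/f library and 20900000 in the d/d library. Mettl14 itself was 13.6 FPKM in f/f and 3.21 FPKM in d/d. Many whole-tissue markers differed widely. The summed FPKM of 6 epithelial markers was 227 for f/f and 1498 for d/d. For 8 stromal markers it was 4453 and 2763, and for 6 smooth muscle markers 4820 and 3155. For 6 endothelial markers it was 320 and 146. At least 2-fold lower in d/d were 5 of the 8 stromal, 2 of the 6 smooth muscle and 4 of the 6 endothelial markers. At least 2-fold higher were 5 of the 6 epithelial markers. Of the 16263 genes that reached 1 FPKM in either library, 8.28% were lower and 10.2% higher by that size. Some stromal and smooth muscle markers differed little, such as Col1a2 at 859 and 787 FPKM and Acta2 at 1211 and 1130. The uterine transcription factor genes Hoxa10 and Hoxa11 and the steroid receptor genes Esr1 and Pgr were detected in both libraries, although Hoxa10 was 357 FPKM for f/f and 63.7 for d/d, Hoxa11 193 and 40.3, Esr1 52.8 and 95.2, and Pgr 43.7 and 57.4. Foxa2, on the same list of uterine genes, was 5.11 and 3.56 FPKM. Hoxa10 and Hoxa11 are also among the 8 stromal markers. In such bulk samples, fewer cells of a type and less RNA per cell cannot be told apart. The part of these tissue markers in the values below was not tested.

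Several proteasome genes have near copies, most of them processed pseudogenes, and 10 of them have a copy that reached 1 FPKM, so that their levels depend on how fragments were shared out. A stretch of coding bases 301 to 360 of Psma5, which encodes an alpha ring subunit, is shown with its copies Gm8394 (listed as Psma5-ps in the files) and Gm12989, and the same bases of the activator gene Psme2 are shown with its copy Psme2b. Capitals mark bases that differ from the proteasome gene. The sequences are from GENCODE M21 transcripts on GRCm38, the assembly also called mm10.
Psma5: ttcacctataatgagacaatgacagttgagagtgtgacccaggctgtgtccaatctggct
Gm8394: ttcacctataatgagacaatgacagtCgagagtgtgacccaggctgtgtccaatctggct
Gm12989: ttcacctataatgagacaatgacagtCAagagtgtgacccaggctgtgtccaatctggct
Psme2: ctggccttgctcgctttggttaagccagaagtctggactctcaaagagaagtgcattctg
Psme2b: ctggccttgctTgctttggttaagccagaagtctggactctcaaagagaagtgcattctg
Gm8394 differs from the Psma5 transcript at 13 of 952 aligned positions and shares an unbroken identical run of 248 nt with it. Psme2b differs from Psme2 at 5 of 794 positions, with an identical run of 341 nt. The copy Gm13835 is identical to a Psma3 transcript over all of its 685 nt. Fragments that lie within such runs cannot be assigned to 1 locus by sequence.

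Proteasome genes were expressed at similar levels in both libraries. Of the 48 genes, 47 reached 1 FPKM in at least one library and are called measured below. The exception was Psmb11, the beta subunit of thymus epithelium, which was listed at 0 in both. Among the measured proteasome genes 28 were lower and 19 higher in d/d, mostly by small amounts. Over all 16263 measured genes 8265 were lower and 7998 higher. The lower proteasome genes include Psma8, which reached 1 FPKM in f/f only and so could only be lower. The differences are given as log2 of the d/d level over the f/f level, with 1 FPKM added to each. Their median was -0.07 over the proteasome genes and -0.01 over all 16263 measured genes. The quartiles were -0.18 and 0.11 for the proteasome genes and -0.41 and 0.41 for all measured genes. Median levels in f/f were 90.6 FPKM for the proteasome genes and 13.2 FPKM for all measured genes. The part of level in the narrower quartiles was not tested.

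No proteasome gene was higher or lower by at least 2-fold, a size that 18.4% of all measured genes reached (10.2% higher and 8.28% lower). At 1.5-fold, 2 proteasome genes were lower and 0 higher, which is 4.26% of 47, while 36.6% of all measured genes passed that size, 18.8% higher and 17.8% lower. With a higher filter of 5 FPKM, 34.0% of genes passed 1.5-fold (18.6% higher and 15.5% lower) and 17.1% passed 2-fold (9.89% higher and 7.22% lower), while of the 45 proteasome genes left 2 passed 1.5-fold and 0 passed 2-fold. The 2 genes past 1.5-fold under either filter were the core assembly chaperone genes Psmg1 and Psmg2. The summed FPKM of the 48 genes was 4456 for f/f and 4282 for d/d, or 0.348% and 0.333% of all FPKM. Across the 47 measured genes the order of levels in the libraries had a Spearman rho of 0.98, beside 0.89 over the 14370 genes at 1 FPKM or more in both, a description across genes that share gene models and libraries.

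**Figure D1:**
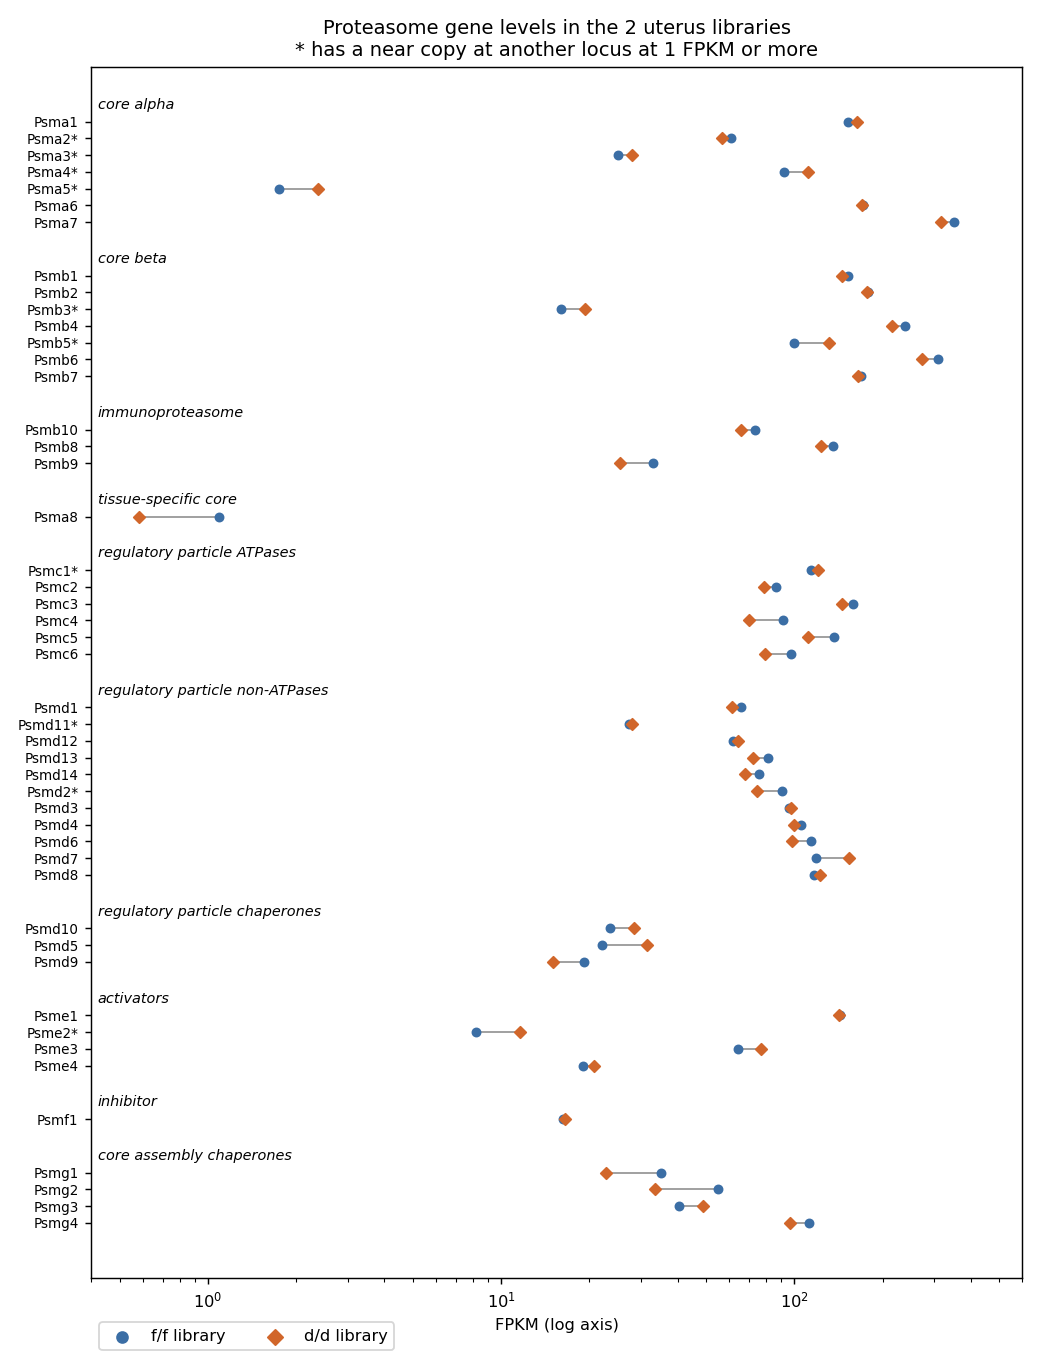
FPKM on a log axis of the 47 measured proteasome genes, grouped by role, with the f/f library as circles and the d/d library as diamonds, 1 library each. Paired points lie close together for most genes, and asterisks mark the 10 genes with a near copy at 1 FPKM or more, among them the lowest core gene Psma5 at 1.75 and 2.37 FPKM.

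Of the 7 alpha ring genes, 4 were higher and 3 lower in d/d, with a median log2 ratio of 0.11. The most abundant was Psma7, at 351 FPKM for f/f and 317 for d/d. Psma6 followed at 172 and 170 FPKM and Psma1 at 152 and 164. These are the 3 alpha genes without a near copy at 1 FPKM or more, and their log2 ratios were -0.15, -0.02 and 0.11. Psma4 was 92.3 FPKM for f/f and 111 for d/d, the largest difference among the alpha genes with more than 5 FPKM (log2 ratio 0.27). Psma2 was 60.6 and 56.6 FPKM. Psma3, whose product helps to close the gate of the barrel, was 25.0 and 28.0 FPKM. Psma5 was far below its partners, at 1.75 FPKM for f/f and 2.37 for d/d.

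The 7 constitutive beta genes had a median log2 ratio of -0.03, with 2 higher and 5 lower in d/d. Psmb6, which encodes the caspase-like catalytic subunit, was the most abundant, at 310 FPKM for f/f and 273 for d/d. The gene of the trypsin-like subunit, Psmb7, was 169 and 165 FPKM. Psmb5, which encodes the chymotrypsin-like subunit and main target of proteasome inhibitor drugs, was 100 FPKM for f/f and 132 for d/d. Its level was 1.32-fold higher, and with 1 FPKM added its log2 ratio of 0.39 was the largest of the 14 constitutive core genes, whereas with 0.1 FPKM added that of Psma5 was larger (0.42). The non-catalytic genes Psmb1, Psmb2 and Psmb4 were 152 and 145, 178 and 177, and 238 and 216 FPKM. Psmb3 stood below these at 16.0 and 19.4 FPKM. Over the 14 alpha and beta genes together the median log2 ratio was -0.01. That median was above 0 when ratios were centred by GC content (0.03) or by expression level (0.01).

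**Figure D2:**
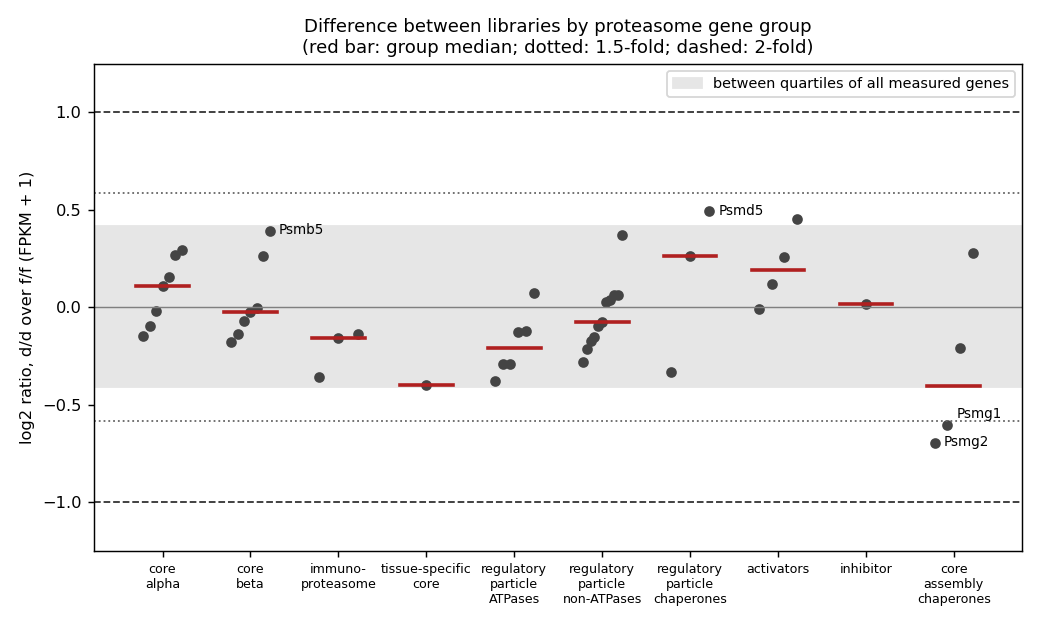
Log2 ratio of (FPKM + 1), d/d over f/f, for each measured proteasome gene by group, with the group median as a red bar and the range between the quartiles of all measured genes shaded. Psmg1 at -0.61 and Psmg2 at -0.69 lie past the dotted 1.5-fold line, and no gene reaches the dashed 2-fold line.

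Near copies held most of the joint level of the lowest core genes. For Psma5 the 2 copies summed to 152 FPKM for f/f and 141 for d/d, so that Psma5 held 1.14% and 1.65% of the joint level. Psma3 held 11.3% and 11.8% of its joint level, and nearly all the rest was assigned to Gm13835 at 196 and 210 FPKM. Psmb3 held 13.0% and 15.1%, beside copies on chromosomes 16 and 18 that are listed as Gm6467 and Gm4950 at 59.6 and 62.9 FPKM and at 47.2 and 45.8 FPKM. Psma2, Psma4, Psmb5, Psmc1, Psmd2 and Psmd11 each held at least 66.5% of their joint level in both libraries. With copies added, the 14 core genes ranged from 91.0 to 351 FPKM in f/f and from 85.0 to 317 in d/d, a 3.86-fold and 3.73-fold span. Without them the span was 200-fold in f/f and 134-fold in d/d.

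Summing also changed 1 direction. The log2 ratio of Psma5 was 0.29 on its own row and -0.10 with its copies, while that of Psmb3 went from 0.27 to 0.06. Psma5 rested on about 38.6 estimated fragments (f/f) and 61.4 (d/d), and the 95% interval of its log2 ratio without the added 1 FPKM was -0.19 to 1.03. These intervals are exact binomial (Clopper-Pearson), use the estimated depths and cover counting error only. Psmb5 stayed at 0.38 with its copy Gm3375, which was 13.7 and 17.2 FPKM.

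**Figure D3:**
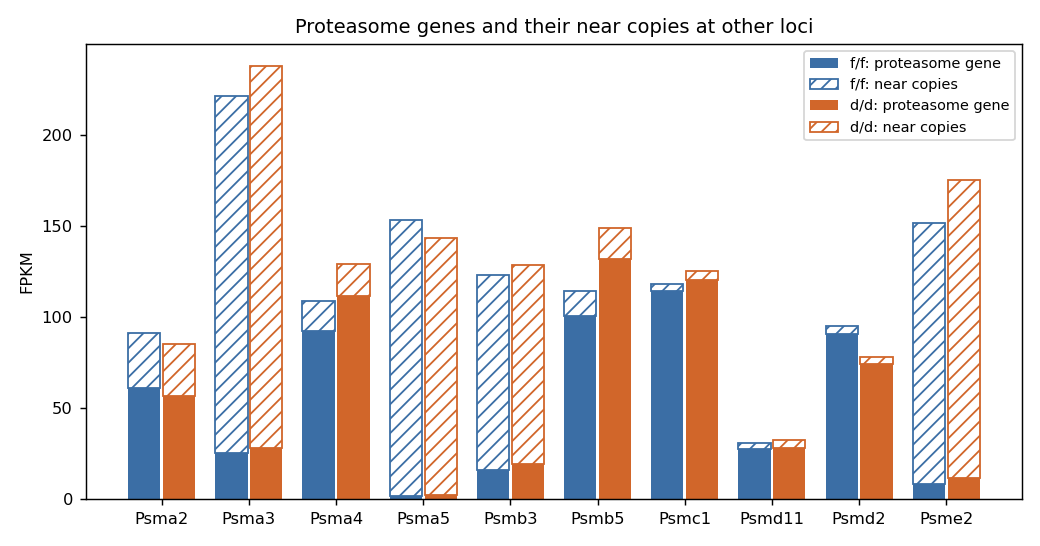
FPKM in f/f (blue) and d/d (orange) of the 10 proteasome genes with near copies, as stacked bars from 0, filled for the proteasome gene and hatched for its copies at other loci. Psma3, Psma5, Psmb3 and Psme2 are mostly hatched in both libraries, and the filled share of Psma3 is 11.3% for f/f and 11.8% for d/d.

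All 3 immunoproteasome genes were slightly lower in d/d, with a median log2 ratio of -0.16 and none past 1.5-fold. Psmb8 was 136 FPKM for f/f and 123 for d/d. Psmb10 was 73.6 and 65.9 FPKM. Psmb9 was the lowest of the group and differed most, at 32.8 and 25.4 FPKM, a log2 ratio of -0.36. Its counting interval was -0.52 to -0.22 on the log2 scale without the added 1 FPKM. Psmb8 and Psmb9 lie in the MHC class II region of chromosome 17, from 34197721 to 34201454 and from 34181987 to 34187764. There Psmb9 overlaps the peptide transporter gene Tap1 on the opposite strand over 212 nt. Tap1 was 24.2 and 19.3 FPKM, and the labels do not say whether reads were assigned by strand.

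The balance of immunosubunits and constitutive subunits differed by site. Psmb8 was above its counterpart Psmb5 in f/f, with a ratio of FPKM of 1.36, and slightly below it in d/d, with a ratio of 0.936. With the copy of Psmb5 counted in, these ratios were 1.19 and 0.828. Psmb10 stood at 0.437 of Psmb7 for f/f and 0.398 for d/d, and Psmb9 at 0.106 and 0.0931 of Psmb6. Immunosubunits made up 29.5% of the summed FPKM of the 6 catalytic genes for f/f and 27.3% for d/d. The shift at Psmb8 and Psmb5 came with Psmb5 being higher and Psmb8 lower in d/d, as the plot of catalytic subunits shows.

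**Figure D4:**
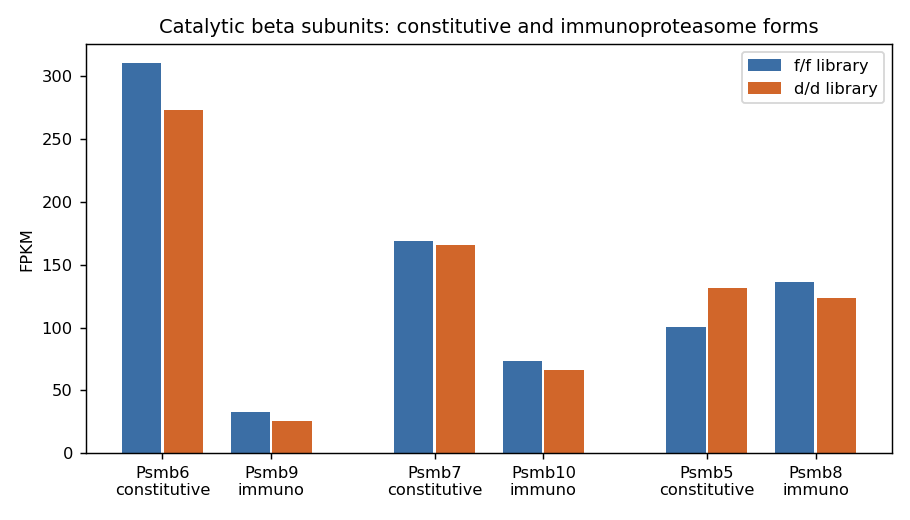
FPKM of the 3 constitutive catalytic genes and the immunosubunit gene that can replace each, as bars from 0 for the f/f and d/d libraries, 1 library each. Psmb8 lies above Psmb5 in f/f and below it in d/d, whereas Psmb9 stands at 0.106 and 0.0931 of Psmb6.

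Leukocytes express immunosubunits strongly, so their markers are given beside this group. Of 17 leukocyte markers 16 were measured, 8 at least 2-fold higher and 4 at least 2-fold lower in d/d. These were 75% of the measured markers, beside 18.4% of all measured genes. The summed FPKM of the leukocyte markers was 312 for f/f and 298 for d/d. The 4 lower markers were the genes of natural killer and cytotoxic cells: Gzmb was 91.3 FPKM for f/f and 0.339 for d/d, Nkg7 56.3 and 2.42, Ncr1 14.9 and 0.368, and Prf1 11.6 and 0.355. Markers of T cells, B cells, macrophages and neutrophils were among the 8 higher ones, and Ly6g, the neutrophil marker, was 9.52 FPKM for d/d and listed at 0 for f/f. The marker of all leukocytes, Ptprc, was 29.1 and 22.7 FPKM. The part of leukocyte content in the immunosubunit levels was not tested. Among 17 genes of interferon control and peptide loading, Ifngr2, a chain of the interferon gamma receptor, was the single gene past 2-fold with 1 FPKM added, at 20.7 and 46.0 FPKM. At 2-fold this was 5.88% of the list, beside 18.4% of all measured genes. At 1.5-fold 5 were higher and 2 lower, or 41.2%, beside 36.6% of all measured genes. The median log2 ratio of the list was 0.40. Interferon gamma itself, Ifng, was 1.60 FPKM for f/f and 0.711 for d/d, 2.25-fold lower as deposited and within 2-fold once 1 FPKM was added (log2 ratio -0.60). Nlrc5, the transactivator of MHC class I genes, was 10.4 and 6.09 FPKM. Ifng, Nlrc5 and Tap1 were named after their values were seen. All 3 were lower in d/d, while the whole list of 17 had 9 genes higher and 8 lower. The 3 most abundant genes of that list were B2m at 1346 and 1174 FPKM, the MHC class I heavy chain gene H2-K1 at 742 and 1260, and the chaperone gene Calr at 814 and 800. The testis alpha subunit gene Psma8 stood at the limit of detection, at 1.09 and 0.583 FPKM, about 32.8 and 20.6 estimated fragments, and passed the filter through f/f alone.

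The regulatory particle had 11 of 17 genes lower and 6 higher in d/d, none by 1.5-fold, beside 8265 of all 16263 measured genes lower. Its median log2 ratio was -0.12. Its 6 ATPase genes, whose products form the unfolding ring, ranged from 86.3 to 158 FPKM in f/f and from 70.3 to 145 in d/d. All but Psmc1 were lower in d/d, and the median was -0.21. Psmc4 had the lowest ratio of the particle, at 91.6 FPKM for f/f and 70.3 for d/d, a log2 ratio of -0.38 with a counting interval of -0.47 to -0.30 without the added 1 FPKM. Psmc5 was 137 and 112 FPKM and Psmc6 was 97.3 and 79.4, both at -0.29. Psmc3 was 158 and 145 FPKM, Psmc2 was 86.3 and 79.0, and Psmc1 was 114 and 120.

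The 11 non-ATPase genes had a median log2 ratio of -0.07, with 6 lower and 5 higher in d/d. The large scaffold genes of the base, Psmd1 and Psmd2, were 65.8 and 61.4 FPKM, and 90.6 and 74.3 FPKM. The ubiquitin receptor Psmd4 was 105 and 99.8 FPKM. In the lid, Psmd14, the enzyme that cuts ubiquitin chains from substrates, was 75.6 and 68.0 FPKM. Its partner Psmd7, a related protein without enzyme activity, was 118 FPKM for f/f and 153 for d/d. That was the highest ratio of the particle (0.37), opposite in sign to that of Psmd14 (-0.15). The other lid genes Psmd3, Psmd6, Psmd8, Psmd11, Psmd12 and Psmd13 had log2 ratios between -0.21 and 0.07. Psmd11 was the lowest of them at 27.3 and 28.0 FPKM. The summed level of the 17 genes of the regulatory particle was 0.811 of that of the 14 constitutive core genes for f/f and 0.782 for d/d. The ratio of the median levels, which rests on the gene in the middle of each group, was 0.630 and 0.515.

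Chaperones of the regulatory particle differed in both directions without passing 1.5-fold. Psmd5 had the highest log2 ratio of all proteasome genes (0.49), at 22.0 FPKM for f/f and 31.3 for d/d. Psmd10, also called gankyrin, was 23.5 and 28.3 FPKM (0.26). Psmd9 was 19.1 and 15.0 FPKM (-0.33).

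The core assembly chaperones held both genes past 1.5-fold. Psmg1 and Psmg2 encode partners that bind each other and help the alpha ring to form. Psmg2 (chromosome 18, 67641599 to 67654162) was 54.8 FPKM for f/f and 33.5 for d/d, a 1.64-fold lower level and a log2 ratio of -0.69. Its counting interval was -0.84 to -0.59 without the added 1 FPKM. Psmg1 (chromosome 16, 95979933 to 95990960) was 35.1 FPKM for f/f and 22.7 for d/d, 1.54-fold lower, with a log2 ratio of -0.61 and an interval of -0.80 to -0.46. The ratio of Psmg1 to Psmg2 was 0.640 for f/f and 0.678 for d/d. Psmg3 and Psmg4 form another such couple and did not share this difference in size. Psmg3 was 40.3 and 49.0 FPKM (0.28) and Psmg4 was 112 and 96.7 FPKM (-0.21). Pomp, the chaperone that matures the beta ring, lies outside the symbol rule and was 233 and 254 FPKM (0.12).

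Among the alternative activators, Psme1 and Psme2 encode the interferon-inducible partners of one ring. Psme1 (chromosome 14, from 55578123) was 143 FPKM for f/f and 142 for d/d. Psme2, its neighbour on the same chromosome, was 8.20 and 11.6 FPKM, while the near copy Psme2b on chromosome 11 was 143 and 163 FPKM. Psme2 alone stood at 0.0573 of Psme1 for f/f and 0.0816 for d/d, and Psme2 with Psme2b stood at 1.06 and 1.23. The nuclear activator gene Psme3 was 64.2 and 77.1 FPKM (0.26), and Psme4, a large activator known for histone degradation, was 19.0 and 20.8 FPKM (0.12). The inhibitor gene Psmf1 was 16.3 and 16.5 FPKM (0.02).

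Genes known to control proteasome genes had log2 ratios from -0.50 to 1.06. Of 10 such genes, Nfe2l2, which encodes the stress factor NRF2, was the single gene past 2-fold, at 54.4 FPKM for f/f and 114 for d/d. This was 10% of the list, beside 18.4% of all measured genes. Nfe2l3, a relative of Nfe2l2, was 8.22 and 15.8 FPKM (0.87). Nfe2l1, which encodes the factor that raises proteasome genes when the proteasome is impaired, was 143 and 114 FPKM (-0.32). Ngly1, an enzyme needed to activate that factor, was 25.3 and 17.6 FPKM (-0.50), and the protease gene Ddi2 was 19.2 and 16.3 FPKM (-0.23). Vcp, the segregase that hands substrates to the proteasome, was 47.6 and 45.4 FPKM. The list median was -0.08, and Nfe2l3, Ngly1 and Ddi2 were named after their values were seen.

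Promoter windows from RefSeq (GRCm38.p6, 250 bases before to 50 after the start) were found for 40 of the 48 genes, in 43 windows. No entry was matched for Psma8, Psmb1, Psmb2, Psmb7, Psmc3, Psmd3, Psmd7 and Psmg2. The core of the antioxidant response element, TGACNNNGC on either strand, which NRF1 and NRF2 bind, was in 6 of these windows (13.95%) and in 12.4% of all 32851 windows. The matches before the start site are shown because factors that bind this element are among the control genes described above. Capitals mark the match, and sequences read 5′ to 3′ on the gene's strand.
Psmb5, minus strand, chr14:54618024-54618052: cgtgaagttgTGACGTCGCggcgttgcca
Psmb6, plus strand, chr11:70525338-70525356: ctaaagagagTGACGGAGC
Psmc6, plus strand, chr14:45329587-45329615: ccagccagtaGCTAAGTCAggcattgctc
Psmd9, plus strand, chr5:123228149-123228177: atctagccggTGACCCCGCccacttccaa
Psmd12, plus strand, chr11:107479278-107479299: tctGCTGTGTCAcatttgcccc
The match in Psme4 spans its start site. Log2 ratios of these genes went both ways, at 0.39 for Psmb5, 0.12 for Psme4, 0.06 for Psmd12, -0.18 for Psmb6, -0.29 for Psmc6 and -0.33 for Psmd9. A match is a description of letters and shows no binding.

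Other motifs were searched on both strands as well. CCAAT was in 32.6% of the proteasome windows and 37.4% of all windows, and GGGCGG was in 55.8% and 35.7%. Of the interferon motifs, the interferon-stimulated response element core (GAAA, 2 further bases, GAAA) was in 11.6% and 3.44%, and TTCNNNGAA was in 6.98% and 8.30%. Some letters of GGGCGG matches overlap matches of the other motifs, as in Psmd9. The interferon-stimulated response element core was in the windows of Psmb3, Psmd4, Psmd9, Psme1 and Psmg4 and in 0 of the 3 immunosubunit windows. The windows of Psmb8 and Psmb9 lie inside the gene spans given above, so sequence upstream of these spans was not searched. Among the 3 immunosubunit windows TTCNNNGAA was found in that of Psmb8, on chromosome 17.
Psmb8, plus strand, chr17:34198088-34198116: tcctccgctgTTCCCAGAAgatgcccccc

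Proteasome proteins outside the symbol rule and genes of ubiquitin supply and shuttling also differed little between the libraries. None of the 8 measured proteasome proteins outside the symbol rule passed 1.5-fold (median log2 ratio 0.08), beside 36.6% of all measured genes. Besides Pomp, the most abundant were Sem1, a small lid subunit, at 92.6 FPKM for f/f and 129 for d/d, and the proteasome-bound deubiquitinase gene Usp14 at 50.5 and 54.4. Paaf1 was not analysed here. Of 11 genes of ubiquitin supply and shuttling none passed 1.5-fold either (median 0.08). The most abundant were the ubiquitin gene Ubb at 572 FPKM for f/f and 460 for d/d, the ubiquitin-activating enzyme gene Uba1 at 104 and 76.9, and the shuttle gene Rad23b at 83.1 and 87.9.

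A pair of other multi-subunit complexes is given beside these values. The 10 genes of the COP9 signalosome, a complex related in structure to the proteasome lid, had a median log2 ratio of -0.05, with none past 1.5-fold. The most abundant were Cops9 at 501 and 668 FPKM, Cops2 at 142 and 103, and Cops6 at 135 and 93.1. The 8 genes of the chaperonin that folds actin and tubulin were more abundant, with a median level of 238 FPKM for f/f and 177 for d/d, and all were lower in d/d, with a median of -0.46 and 2 past 1.5-fold. At 1.5-fold this was 25% of the 8 chaperonin genes, beside 36.6% of all measured genes. The most abundant were Cct6a at 409 and 297 FPKM, Tcp1 at 306 and 261, and Cct5 at 303 and 231. The difference between these complexes and the proteasome could not be tested with 1 library per genotype.

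**Figure D5:**
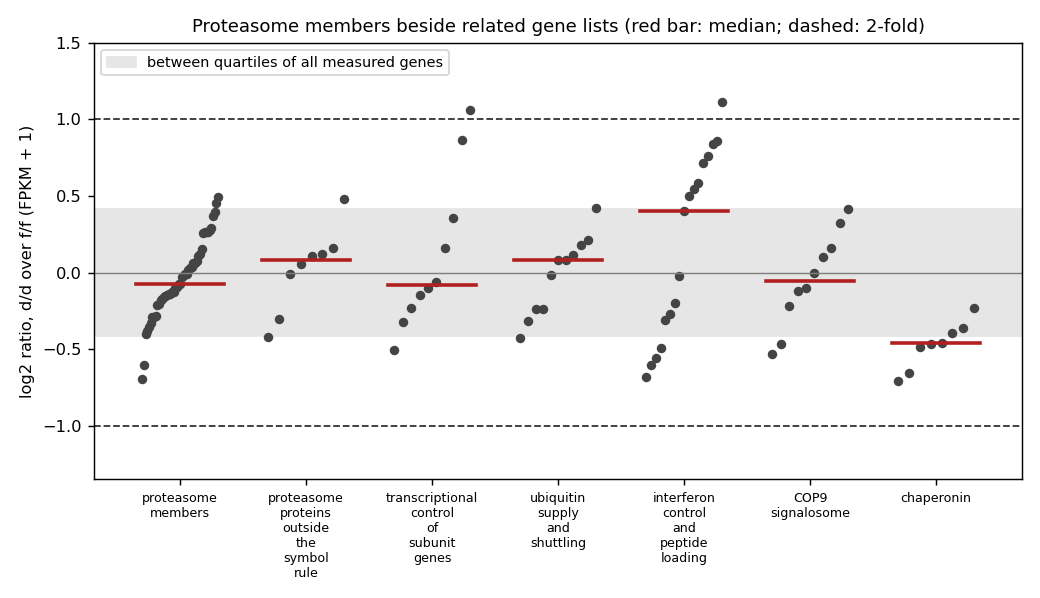
Log2 ratio of (FPKM + 1), d/d over f/f, for the measured proteasome genes and 6 related gene lists, each point 1 gene, with list medians as red bars and the range between the quartiles of all measured genes shaded. The proteasome median is -0.07, the chaperonin lies lower at -0.46, and the interferon and peptide loading list spreads past the shaded range on both sides with a median of 0.40.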

How the data were processed

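RNA from whole uterus was extracted with TRIzol and made into libraries with a TruSeq RNA kit, per the labels' protocols. The deposited FPKM values were made by the authors; HISAT2 2.2.1, Cufflinks 2.2.1 and the build mm10 are named in the submitters' processing notes. The sources used here do not give the annotation release, strandedness or read length. The unit was read from the values and from the use of Cufflinks.

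Rows sharing a symbol were summed (120 of 55483 rows), and no proteasome gene had more than 1 row. A gene counted as measured when either library reached 1 FPKM. Log2 ratios used a pseudocount of 1 FPKM, which understates changes of low genes. Calls at 2-fold and 1.5-fold are descriptions, with no test. Positions and transcripts came from GENCODE M21, which held 55223 of the gene IDs. Near copies were transcripts of other loci with at least 95% identity over at least 200 nt and at least 50% of their length (blastn 2.17.0), sense strand only, and this definition was chosen after the values were seen. Depth was fitted on low values of genes with 1 transcript of at least 2000 nt: at the fitted depth 73.0% of 842 values in f/f and 69.2% of 869 in d/d lay within 0.1 of whole fragments. The fit used full transcript length, so depths are approximate. Counting intervals used the longest coding transcript. The calling script was run on simulated data with planted changes larger than 2-fold, which checks the code and not the calls made here.

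All proteasome genes were named. From each related list, genes past 2-fold and the 3 with the highest mean FPKM were named, with exceptions stated. The list of ubiquitin supply and shuttling was shortened, since some of its genes are not reported here. Members and lists were chosen with earlier results of these data known. Python 3.11.15, pandas 2.3.3 and scipy 1.17.1 were used. Tried alternatives concerned pseudocount, filter, scaling, centring, duplicate symbols and near copies.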

Additional observations from a re-analysis of the deposited data

How the results depend on the processing

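The counts of proteasome genes past 2-fold stayed at 0 under all 10 alternatives, of which 8 were planned and 2, on near copies, were added after seeing the data. The count of genes lower by 1.5-fold was 2 under 9 of them and 3 with a pseudocount of 0.1 FPKM, where Psma8 was added. Over the alternatives, Psmg2 ranged from -0.75 to -0.64 on the log2 scale and Psmg1 from -0.66 to -0.60. The median of the immunoproteasome genes ranged from -0.21 to -0.15, that of the regulatory particle from -0.15 to -0.10, and that of the constitutive core from -0.05 to 0.03. The sign of 7 single genes differed under at least 1 alternative. For 5 of these, Psma6, Psmb2, Psmb7, Psmd3 and Psme1, the main ratio lay within 0.03 of 0. The others were Psma5 with its copies added and Psma8, at 0.00 when centred by expression level. Centring by GC content moved 4 genes by more than their counting error, Psma2 from -0.10 to -0.02, Psmc2 from -0.13 to -0.04, Psmc6 from -0.29 to -0.21 and Psmb7 from -0.03 to 0.06. The cause was not tested. No paired analysis was possible because each genotype has 1 library. For the same reason, leaving out a replicate could not be run.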

Other observations

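Psmc3ip shares the start of its symbol with the ATPase genes but encodes a partner of meiotic recombinases and no proteasome subunit. It was 14.5 FPKM for f/f and 8.24 for d/d. With 1 FPKM added, its log2 ratio of -0.75 lies outside the range of all measured proteasome genes. As deposited it was 1.76-fold lower in d/d, less than Psma8 at 1.87-fold. Psmc3ip was named after its values were seen. Besides Psmb9 and Tap1, several proteasome genes overlap a gene on the opposite strand. The longest such match was that of Psmd9 with the long noncoding gene Gm26745, over 1865 nt, and no level was listed for Gm26745. Psmb7 overlaps the kinase gene Nek6 over 255 nt, and Nek6 was 35.0 FPKM for f/f and 26.9 for d/d. Psmd13 overlaps the deacetylase gene Sirt3 over 329 nt, and Sirt3 was 11.6 and 7.21 FPKM. Without strand, fragments of such overlaps cannot be told apart.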
